A study of Mus musculus with 26 samples.

Results

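The abundant small messenger-sized transcripts of mouse liver were 114 gene clusters of the 31469 in the deposited tables. A cluster is a numbered group of isoforms. Members were selected on 2 values: a longest isoform of 500 to 800 nt, and a mean of 50 to under 1500 CPM (a cluster's counts scaled to a common library size, here by library total only) over the 4 wild-type total RNA libraries. Of 1734 clusters in that length range, 116 lay inside both limits, and 2 of these were left out by name in the selection rule. Because wild-type total RNA chose the members, their level there is a description. Every main test against total RNA used the other mouse groups.

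Liver was taken from 3 groups of mice. Wild type were C57BL/6J mice fed normally, the high-fat diet group were C57BL/6J mice given high-fat food, and ob/ob were B6.V-Lepob/J mice fed normally, which lack leptin and become obese. RNA bound to hnRNPK was immunoprecipitated (IP) from a hypotonic cytoplasmic extract and from a salt extract of the nuclei, after each extract had been precleared over IgG beads. Total liver RNA was sequenced beside them, so an IP-to-total difference spans both the fractionation and the precipitation. There were 12 total RNA, 6 cytoplasmic IP and 6 nuclear IP libraries, plus 1 IgG control library per compartment, made from mixed mice. Ages of the mice are not given in the sources used here. It is not stated whether replicates came from different mice. The p-values therefore reflect only how far these samples varied, which could be technical variation.

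Short messenger RNAs carry short coding sequences. In liver, as in most tissues, well-known examples encode ribosomal proteins and small subunits of the respiratory chain, and the liver adds small secreted proteins such as apolipoproteins. hnRNPK is an RNA-binding protein with KH domains that prefer cytosine-rich single strands. It moves between nucleus and cytoplasm and is known for roles in transcription, splicing, RNA stability and translation. The files do not pair their identifiers with gene symbols, so it is not known here which of those genes the members are, and a cluster is named by its most counted isoform.

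Library totals ran from 25597307 to 41731910 in total RNA, from 8834063 to 12068891 in cytoplasmic IP and from 5336060 to 10581089 in nuclear IP. The nuclear IgG library held 3116786 counts and the cytoplasmic one only 338469. Member counts in these were at a median of 379 and 65.5, with 1 member under 10 counts in each. The 2 libraries per replicate number of total RNA were summed, which gave 18 units with 2 per mouse group and fraction. All 114 members passed the filter on low counts.

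The members were mostly simple gene models. A single isoform was listed for 79 of them, 2 isoforms for 28 and 3 or more for 7. In 104 members the leading isoform held over 90% of the counts. Lengths ran from 502 to 800 nt with a median of 646.5 nt. The mean wild-type total RNA level by library total ran from 50.2 to 1056 CPM with a median of 147 CPM. It was under 100 CPM in 39 members and at or above 300 CPM in 10. At the edges of the rule, the lowest member at 50.2 CPM stood beside a cluster just outside at 49.8 CPM. With the clusters left out by name set aside, the next of this length range above the top member at 1056 CPM was at 2280 CPM. The shortest member of 502 nt stood beside an outside cluster of 499 nt, and the longest of 800 nt beside one of 804 nt. Per length, the deposited TPM, RSEM's length-corrected abundance, in wild-type total RNA averaged 142 to 3880 over members, with a median of 459.

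The members made up a small share of total RNA and a larger share of the cytoplasmic precipitate. They took 1.84 to 2.30% of the counts of a total RNA library, with a median of 2.03%. The share was 3.30 to 5.06% in cytoplasmic IP, with a median of 4.62%, and no cytoplasmic IP library overlapped a total RNA library. In nuclear IP it was 1.30 to 2.54%, with a median of 2.07%, which spanned the total RNA range. The cytoplasmic IgG library gave 3.19% and the nuclear one 2.08%.

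Cytoplasmic hnRNPK IP held most members at a higher level than total RNA did. Over the high-fat diet and ob/ob groups, 102 of 114 members were higher in cytoplasmic IP, 8 were lower and 4 did not pass an adjusted p of 0.05 (edgeR's quasi-likelihood test, Benjamini-Hochberg over all clusters). Among all clusters tested, 34.3% were called higher and 39.2% lower. The median log2 difference over members was 1.46, a 2.75-fold difference, with quartiles of 0.92 and 1.87, and the median over all clusters was -0.11. The medians of the 4 IP units had an SD of 0.28. At least 2-fold higher were 79 members and at least 4-fold higher 25. The quartiles over all clusters tested were -1.16 and 0.85.

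The size of that difference depended on scaling. With library totals in place of TMM (edgeR's trimmed-mean scaling), 79 members were called higher and 10 lower, where 20% and 51.6% of all clusters were. The median over members was then 0.92 and that over all clusters -0.65. Members stood 1.57 log2 units above the median of all clusters under both scalings. Rescaling moves all clusters of a library alike, so this distance could hardly change and is no check.

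**Figure D1:**
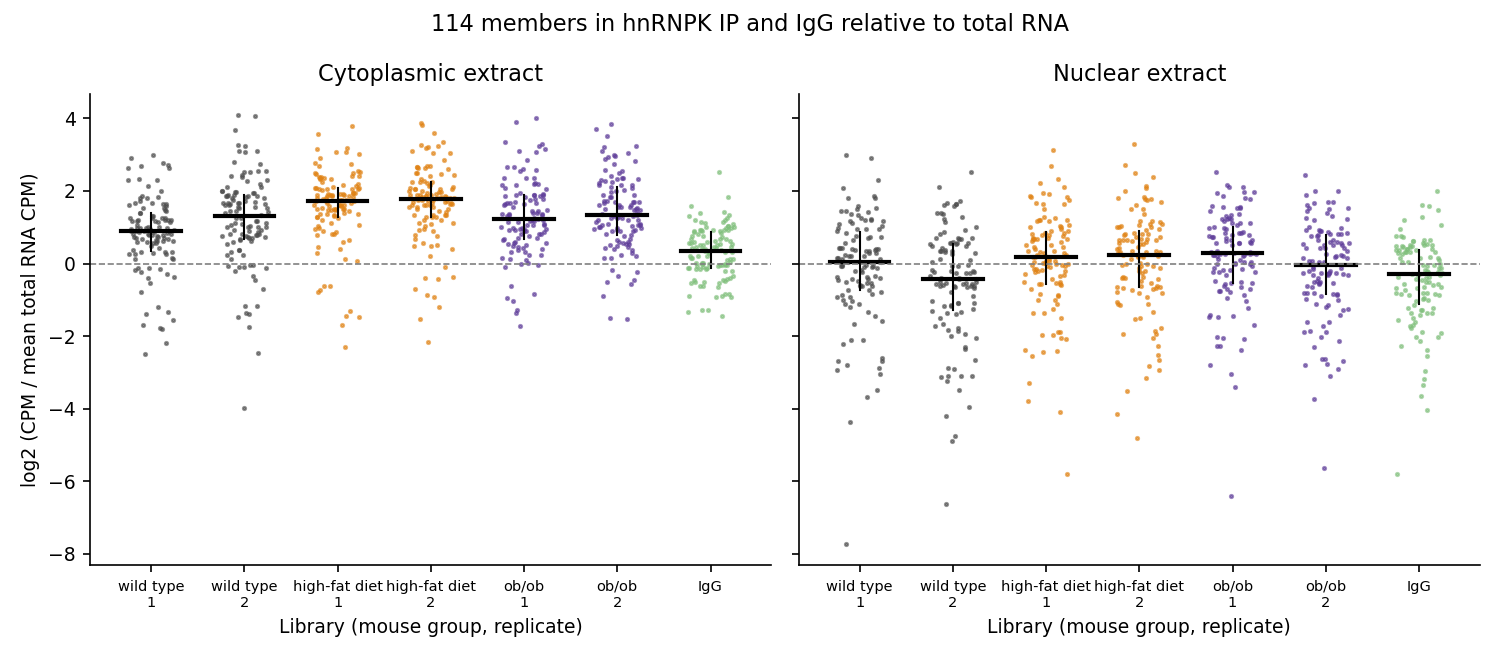
Each point is 1 of the 114 members in 1 library, as log2 of its CPM over the mean CPM of the total RNA units of the same mouse group (for IgG, of all 6 units). Thick bars are medians and thin bars quartiles. Under TMM, as plotted, the 6 cytoplasmic IP medians lie between 0.89 and 1.78, above cytoplasmic IgG at 0.34 (by library totals 1 wild-type median, 0.44, lies below IgG at 0.48), and the nuclear IP medians between -0.41 and 0.28, with nuclear IgG at -0.30.

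Library by library, the members' median over their own mouse group's total RNA in cytoplasmic IP was 0.89 and 1.30 in wild type, 1.74 and 1.78 on high-fat diet, and 1.22 and 1.34 in ob/ob. The wild-type values are a description, since their total RNA chose the members. Under TMM both high-fat diet libraries were the highest of the 6. By library totals the 6 medians were 0.44 and 0.82, 1.24 and 0.81, and 0.76 and 0.78 in the same order, and the second high-fat diet library no longer ranked above the second wild-type library. The numbers of members above total RNA were 95 and 96 in wild type, and 104 or 105 in each of the others. The matching shares of all clusters were not counted.

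The member with the largest cytoplasmic difference was uc008ltf.1, a single-isoform cluster of 629 nt. Its CPM in total RNA was 44.1 and 68.4 in wild type, 36.9 and 37.9 on high-fat diet, and 53.9 and 38.7 in ob/ob. In cytoplasmic IP its CPM was 360 and 533, 522 and 551, and 687 and 526 in the same order. Every cytoplasmic IP library thus lay far above every total RNA unit, and above the cytoplasmic IgG library at 72.6 CPM. The log2 difference was 3.70 ± 0.23 (SE), or 13.0-fold (edgeR adjusted p = 2.8e-09). In nuclear IP the same cluster was at only 17.1 to 39.0 CPM, near the total RNA level or below it.

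Next came uc007ijk.1, a single-isoform cluster of 566 nt. Its total RNA CPM was 45.7 and 52.9 in wild type, 51.2 and 144 on high-fat diet, and 219 and 129 in ob/ob. Cytoplasmic IP gave 389 and 841, 589 and 1213, and 2694 and 2440 CPM. The ob/ob libraries were highest in both, while in total RNA 1 high-fat diet unit lay with wild type and the other with ob/ob. Its log2 difference was 3.47 ± 0.37 (SE), or 11.1-fold (edgeR adjusted p = 8.3e-07). Cytoplasmic IgG held 211 CPM of it, more than 5 of its 6 total RNA values.

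A few members went the other way. The 8 that were lower in cytoplasmic IP were 610 to 768 nt long, with log2 differences of -1.77 to -0.55, and 7 of them were also lower in nuclear IP. Cytoplasmic IgG over total RNA for these 8 had a median of -0.84, below the members' 0.34. The lowest of them was uc007thb.2, a single-isoform cluster of 703 nt. Its total RNA CPM was 111 and 80.7 in wild type, 112 and 96.2 on high-fat diet, and 151 and 102 in ob/ob. Its cytoplasmic IP CPM was 26.9 and 5.97, 38.3 and 23.2, and 37.2 and 43.8, all under every total RNA unit. The log2 difference was -1.77 ± 0.31 (SE; edgeR adjusted p = 1.2e-04), and the cytoplasmic IgG library, at 44.0 CPM, was as high as the highest IP library.

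The second lowest was uc009gza.1, of 610 nt with 2 isoforms. It had 73.8 to 140 CPM in the 4 total RNA units of the high-fat diet and ob/ob groups, against 27.9, 47.8, 53.7 and 33.5 CPM in their cytoplasmic IP libraries. These ranges did not overlap, and the log2 difference was -1.61 ± 0.37 (SE; edgeR adjusted p = 0.0013). Another member of 610 nt carries the next cluster number, and it was lower as well, with a log2 difference of -0.90. Whether reads were divided between these 2 was not tested. Cytoplasmic IgG held 52.8 CPM of uc009gza.1, inside the range of the IP libraries.

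Nuclear hnRNPK IP split the members. Of 114, 45 were higher than in total RNA, 37 were lower and 32 did not pass the threshold, against 29.6% higher and 39.6% lower among all clusters tested. The median log2 difference was 0.18, and -0.19 over all clusters. The spread was wide, from -5.72 to 2.78, with quartiles of -0.74 and 0.81. At least 2-fold higher were 18 members, and at least 2-fold lower were 20, of which 12 were at least 4-fold lower. Over all clusters the quartiles were -1.21 and 0.64. Scaling by library totals gave 22 higher and 51 lower, where 16.4% and 51.2% of all clusters were, and turned the median to -0.29, when the median of all clusters was -0.65. Members stood 0.37 above all clusters under TMM and 0.36 above them under library totals, a distance that rescaling could hardly change. Without the first ob/ob nuclear IP library the median was 0.04.

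Cytoplasmic and nuclear IP share their total RNA, so their differences are set side by side without a relation between them. The 25 members at least 4-fold higher in cytoplasmic IP had nuclear differences with a median of 0.57 and a minimum of -2.31, with 13 called higher there and 5 lower. The 12 members at least 4-fold lower in nuclear IP had cytoplasmic differences from -1.77 to 2.31, with 7 called higher and 4 lower.

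The highest nuclear difference was that of uc007pul.1, a single-isoform cluster of 728 nt. Its total RNA CPM was 88.7 and 81.8 in wild type, 86.8 and 86.5 on high-fat diet, and 76.2 and 65.0 in ob/ob. Its nuclear IP CPM was 639 and 491, 764 and 854, and 402 and 381. Total RNA barely varied, and every nuclear library was above every total RNA unit. The log2 difference was 2.78 ± 0.19 (SE), or 6.85-fold (edgeR adjusted p = 8.5e-09). The nuclear IgG library held 320 CPM, under each IP library but well over total RNA. The second, uc009bbs.1, of 549 nt with 1 isoform, had a log2 difference of 2.17 ± 0.14 (SE; edgeR adjusted p = 6.3e-09). Its nuclear IP CPM was 148 and 169 in wild type, 318 and 324 on high-fat diet, and 160 and 219 in ob/ob, against 49.1 to 79.4 CPM in total RNA. Its nuclear IgG level of 168 CPM lay among the wild-type and ob/ob IP values.

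At the low end, uc007thb.2 was almost missing from the nuclear precipitate. Nuclear IP held 0.45 and 0.96 CPM in wild type, 1.85 and 3.71 on high-fat diet, and 1.45 and 2.50 in ob/ob, which rest on 5 to 19 counts per library. Nuclear IgG held 1.91 CPM, in the same range. Against the total RNA levels given above, the log2 difference was -5.72 ± 0.43 (SE), or 52.5-fold lower (edgeR adjusted p = 2.7e-08). The next was uc009but.1, of 708 nt with 3 isoforms, at 259 to 317 CPM in total RNA. It had 13.8 and 9.71 CPM in wild-type, 23.0 and 17.9 CPM in high-fat diet and 25.6 and 20.4 CPM in ob/ob nuclear IP. No nuclear value came near total RNA, and the log2 difference was -3.82 ± 0.22 (SE; edgeR adjusted p = 1.4e-09). Nuclear IgG was at 17.7 CPM.

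Set against each other, the precipitates placed most members on the cytoplasmic side. Over the 12 IP libraries of all 3 mouse groups, 91 members were lower in nuclear than in cytoplasmic IP, 7 were higher and 16 did not pass the threshold (edgeR). Of all clusters, 33.6% were lower and 31% higher. The median log2 difference was -1.37, a 2.58-fold difference, against -0.04 over all clusters, and 33 members were at least 4-fold lower. Over all clusters the quartiles were -0.84 and 0.67. By library totals 83 were lower and 9 higher, where 27% and 33.6% of all clusters were. No total RNA enters this comparison. All 7 members that were higher in nuclear IP had a single isoform, were 503 to 766 nt long, and had nuclear IgG levels of 0.28 to 1.99 log2 units above total RNA.

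**Figure D2:**
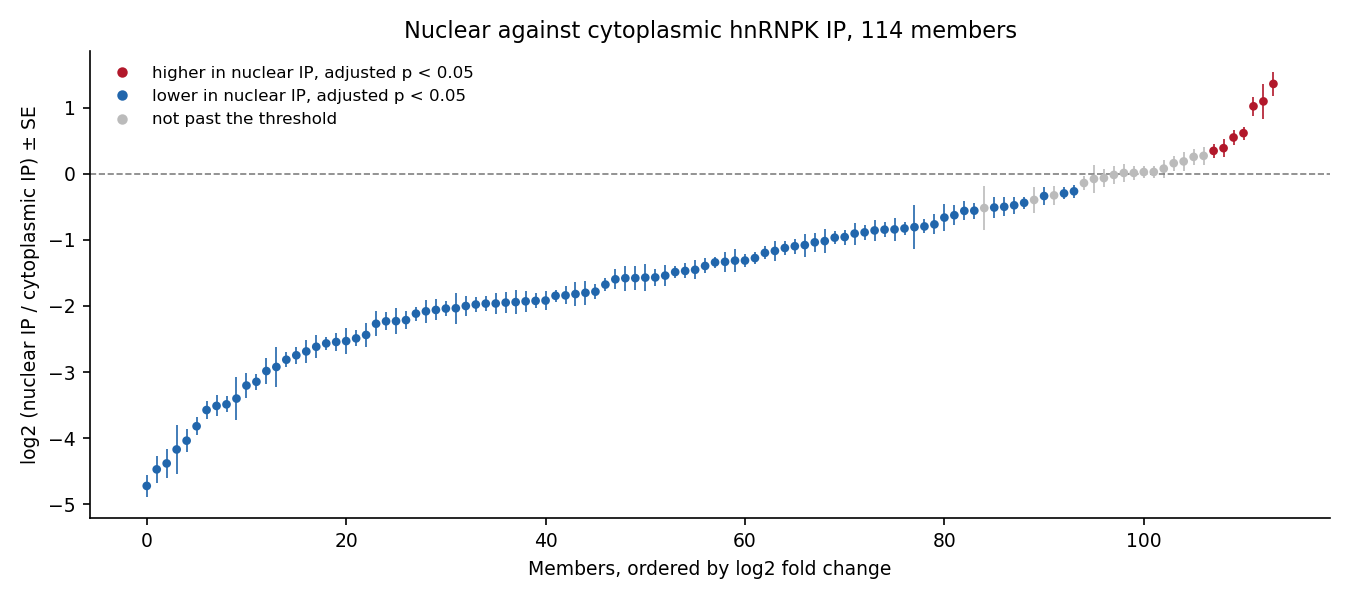
Log2 difference between nuclear and cytoplasmic IP (y axis, with SE bars) for the 114 members in ascending order (x axis), coloured by the edgeR call. The 91 members called lower reach down to -4.72, and the 7 called higher reach 1.36.

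The most cytoplasmic member was uc009peo.1, a single-isoform cluster of 764 nt. Cytoplasmic IP held 632 and 777 CPM in wild type, 866 and 1041 on high-fat diet, and 892 and 757 in ob/ob. Nuclear IP held 28.8 and 17.9, 41.0 and 42.4, and 36.1 and 25.5 CPM. The lowest cytoplasmic value was many times the highest nuclear one, and total RNA lay between them at 150 to 230 CPM. The log2 difference was -4.72 ± 0.16 (SE), or 26.4-fold lower in nuclear IP (edgeR adjusted p = 1.8e-11). The IgG libraries differed in the same direction, at 357 CPM in cytoplasm and 30.3 CPM in the nuclear extract. For uc008ltf.1, whose values stand above, nuclear IP was 22.2-fold lower (log2 -4.47 ± 0.20 SE, edgeR adjusted p = 1.8e-10), with IgG at 72.6 and 13.8 CPM.

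In the opposite corner, uc009mdr.1, a single-isoform cluster of 766 nt, had the largest difference toward nuclear IP. Its cytoplasmic IP CPM was 61.0 and 54.6 in wild type, 55.4 and 49.9 on high-fat diet, and 33.9 and 56.9 in ob/ob. Nuclear IP gave 182 and 98.8, 116 and 142, and 94.1 and 164 CPM, all above all cytoplasmic values. The log2 difference was 1.36 ± 0.18 (SE; edgeR adjusted p = 9.5e-06). This cluster was one of the 8 lower in cytoplasmic IP than in total RNA, with a log2 difference of -0.93. Nuclear IgG at 144 CPM lay inside the range of the nuclear IP libraries. For uc007pul.1 the cytoplasmic IP CPM was 297 and 146, 451 and 368, and 241 and 231, below the nuclear values above in each mouse group, with a log2 difference of 1.02 ± 0.15 (SE; edgeR adjusted p = 2.0e-05).

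**Figure D3:**
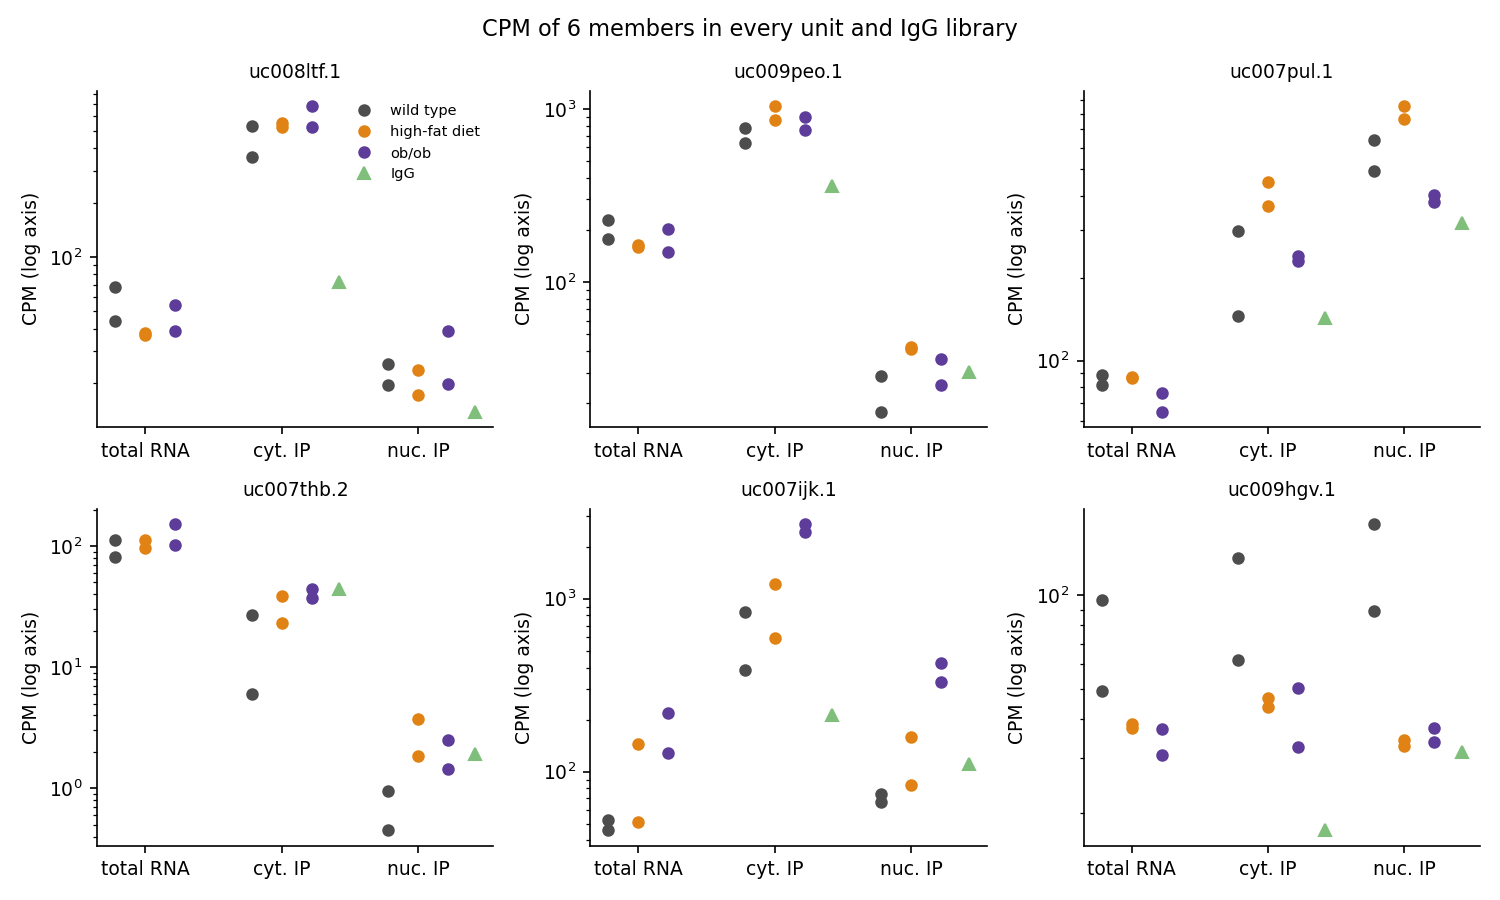
CPM on a log axis for 6 members in total RNA, cytoplasmic IP and nuclear IP. Each dot is 1 unit of the mouse group given by its colour, and triangles are the IgG libraries. Cytoplasmic IP stands highest for uc008ltf.1, uc009peo.1 and uc007ijk.1, nuclear IP for uc007pul.1, and total RNA for uc007thb.2, while for uc009hgv.1 the wild-type units stand highest in every fraction.

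The IgG libraries held the members too. In the nuclear extract, their differences from total RNA ranked the members much as those of the IP did. Cytoplasmic IgG was above mean total RNA for 73 of 114 members, with a median log2 ratio of 0.34, and nuclear IgG for 44, with a median of -0.30. For IgG over total RNA, the matching shares of all clusters were not counted. All 6 cytoplasmic IP libraries were above cytoplasmic IgG for 82 members, where 46% of all clusters tested were. This count was 34 when each IP library had to be at least 2-fold above IgG, where 25.2% of all clusters were, and 47 by library totals, where 29.1% were. All 6 nuclear IP libraries were above nuclear IgG for 52 members (45.6%), where 23.8% of all clusters were. With the 2-fold margin the nuclear count was 3 members (2.63%), where 2.32% of all clusters were, and by library totals it was 4 (3.51%), where 3.72% were, so under both alternatives the members' share was near that of all clusters. With 1 IgG library per compartment there was no test of IP against IgG, and the part of IgG binding in the IP differences was not tested.

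Across the 114 members, as a description, the ob/ob nuclear IP difference from ob/ob total RNA and the nuclear IgG difference from high-fat diet total RNA had a Pearson's r of 0.90 and a Spearman's rho of 0.85. With the total RNA groups exchanged, r was 0.93 and rho 0.90. In cytoplasm the same relations were lower, at r of 0.34 and rho of 0.23, and r of 0.63 and rho of 0.61. The pairs share no library, but all are scaled together, and members are not replicates. Total RNA of ob/ob and high-fat diet was also close, with log2 differences of -0.47 to 0.85 over members. Nearly the same profile is thus subtracted on both sides, which can raise r.

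The members' IP differences were ordered alike in both tested mouse groups, which says nothing of their size. Across the 114 members the cytoplasmic difference in ob/ob and that in high-fat diet had r of 0.87 and rho of 0.80, and the nuclear differences r of 0.95 and rho of 0.93. These pairs use separate IP and total RNA libraries, with the same limit from similar total RNA. The cytoplasmic medians under TMM were 1.74 and 1.78 on high-fat diet, and 1.22 and 1.34 in ob/ob. By library totals they were 1.24 and 0.81, and 0.76 and 0.78.

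Within the members, medians of the cytoplasmic difference by length, level and isoform number lay close together. The 41 members under 600 nt had a median cytoplasmic difference of 1.51, the 37 in the middle 1.49, and the 36 of 700 nt or more 1.42. Medians by level were 1.49 for the 39 members under 100 CPM, 1.40 for the 65 up to 300 CPM and 1.70 for the 10 above. The 79 single-isoform members had a median of 1.47 and the 35 others 1.43. Nuclear medians varied more. Nuclear IP against total RNA had medians of 0.25, 0.23 and -0.12 in the 3 length classes, and of -0.06, 0.09 and 0.43 in the 3 level classes. Nuclear against cytoplasmic IP had medians of -1.45, -1.10 and -1.68 by length. All of these are descriptions of what the selection used or of the gene models, with no test.

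Beyond the members, other lengths at the same abundance were ordered. Among clusters of 50 to under 1500 CPM in wild-type total RNA, the median cytoplasmic difference was 1.64 for the 39 shorter than 500 nt and 1.46 for the members. It was 0.78 for the 306 clusters up to 1500 nt, 0.08 for the 968 up to 3000 nt, -0.36 for the 725 up to 5000 nt and -0.77 for the 432 longer ones. Nuclear against cytoplasmic IP was -1.31 in the shortest class and -1.37 in the members, and from there rose with each longer class to 0.39. Nuclear against total RNA had the smaller span of the 2 IP-to-total comparisons, from 0.29 to -0.51. Length chose the members, so these medians are a description without a test.

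**Figure D4:**
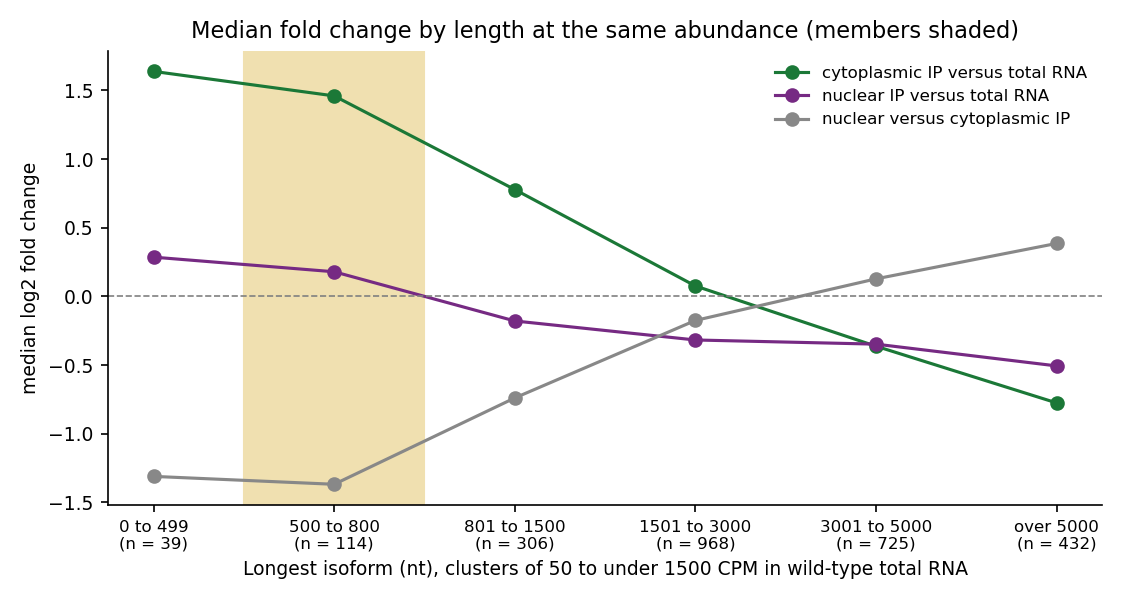
Median log2 difference (y axis) of clusters of 50 to under 1500 CPM, by length of the longest isoform in nt (x axis, with cluster numbers), in the 3 comparisons. The members are the shaded class. The cytoplasmic line falls from 1.64 to -0.77 with length and the nuclear-against-cytoplasmic line starts at -1.31 and, from the members on, rises from -1.37 to 0.39.

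In total RNA, only ob/ob and high-fat diet were tested against each other, and the members called depended on the method. Between ob/ob and high-fat diet, edgeR called 0 of 114 members, where 0.123% of all clusters were higher in ob/ob and 0.368% lower. At an unadjusted p under 0.05 were 43 members, against 21.9% of all clusters. DESeq2 called 36 members higher in ob/ob and 1 lower, against 3.78% and 5.23% of all clusters. The median log2 difference was 0.22, against 0.01 over all clusters. Both ob/ob units were above both high-fat diet units for 72 members and below them for 11, where the shares over all clusters were 29.5% and 33.2%. This count was added after seeing the data. The ob/ob units themselves differed by a median of 0.22 over members (log2, replicate 1 minus replicate 2), and the high-fat diet units by -0.02. Against wild type, given as levels only, the median was -0.32 for high-fat diet and -0.03 for ob/ob, with 113 and 111 members within 2-fold. Wild-type replicates differed by a median of -0.25 in the same sense.

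In cytoplasmic IP, 18 members were higher in ob/ob than in wild type and 3 were lower (edgeR), where 5.94% and 6.83% of all clusters were. The calls were fewest without the second ob/ob library, among members and among all clusters. Without the first wild-type library, the called members were no longer mostly higher. The wild-type libraries differed by a median of -0.38 over members (log2, replicate 1 minus replicate 2). The median difference was 0.21, and -0.03 over all clusters. It was 0.16 and -0.04 without the second ob/ob library, and 0.095 and 0.016 without the first wild-type library.

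The largest rise was in uc007ijk.1, at 389 and 841 CPM in wild type and 2694 and 2440 CPM in ob/ob. The groups were well apart, with a log2 difference of 2.01 ± 0.50 (SE; edgeR adjusted p = 0.018). Leaving out either ob/ob library or the first wild-type library raised the adjusted p to 0.053, 0.078 and 0.11 (edgeR), and without the second wild-type library the difference was 2.66. The level in total RNA was higher in ob/ob as well. The second was uc009gza.1, at about 11 CPM in both wild-type libraries and 53.7 and 33.5 CPM in ob/ob. Its log2 difference of 1.92 ± 0.58 (SE; edgeR adjusted p = 0.042) did not pass without any one of the 4 libraries, with adjusted p of 0.090 to 0.17 in edgeR.

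The largest fall was in uc009vev.1, a single-isoform cluster of 783 nt. Cytoplasmic IP held 2833 and 6276 CPM in wild type, 2137 and 3829 on high-fat diet, and 844 and 1354 in ob/ob. The ob/ob libraries were the lowest, with a log2 difference of -2.10 ± 0.41 (SE; edgeR adjusted p = 0.0057), which was -1.42 without the second wild-type library. In total RNA, ob/ob was instead the highest group, at 584 and 595 CPM, with 326 and 435 CPM in wild type and overlapping values of 358 and 397 CPM on high-fat diet. Cytoplasmic IgG, from mixed mice, held 2500 CPM of it, inside the range of the IP libraries and above both ob/ob libraries. Also lower was uc009hgv.1, of 691 nt, at 61.8 and 132 CPM in wild type and 32.6 and 50.2 CPM in ob/ob. The call for its log2 difference of -1.28 ± 0.37 (SE; edgeR adjusted p = 0.037) was lost by library totals (adjusted p = 0.075, edgeR) and without either ob/ob library. It was also lost without the second wild-type library, when the difference was -0.64.

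High-fat diet against wild type in cytoplasmic IP gave 3 members higher and 0 lower (edgeR), where 0.962% and 0.888% of all clusters were. At an unadjusted p under 0.05 were 32 members, against 19.2% of all clusters. DESeq2 called 17 higher and 0 lower, against 4.42% and 3.07% of all clusters. The edgeR count was 0 by library totals and 0 with the 12 IP units alone. The calls were lost without the second wild-type library or either high-fat diet library, when nearly all calls over all clusters were lost too. The largest were uc008lzf.2, of 604 nt, and uc007nrs.2, of 517 nt. The former had 99.1 and 81.7 CPM in wild type and 159 and 157 CPM in high-fat diet, a log2 difference of 0.76 ± 0.16 (SE; edgeR adjusted p = 0.038). The latter had 338 and 326 CPM against 578 and 539 CPM, a log2 difference of 0.70 ± 0.16 (SE; edgeR adjusted p = 0.041). In both clusters replicates lay close together. Total RNA did not show the rise: uc008lzf.2 was at 50.6 and 56.5 CPM in wild type and 48.5 and 52.3 CPM in high-fat diet, and uc007nrs.2 at 158 and 165 against 154 and 151 CPM.

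In nuclear IP, 13 members were higher in ob/ob than in wild type and 1 was lower (edgeR), where 5.5% and 8.23% of all clusters were. The calls were fewer without the second wild-type library or the second ob/ob library, among members and among all clusters. The median over members was then 0.042 and 0.35, and that over all clusters -0.014 and -0.042. The wild-type nuclear libraries differed by a median of 0.45 over members, replicate 1 being the higher. Again uc007ijk.1 was the largest, at 66.4 and 74.3 CPM in wild type and 422 and 330 CPM in ob/ob, a log2 difference of 2.38 ± 0.51 (SE; edgeR adjusted p = 0.0088). Without either wild-type library its adjusted p was 0.052 and 0.051 (edgeR). The second, uc009iuq.2, a single-isoform cluster of 639 nt, was at 76.2 and 76.7 CPM in wild type and 331 and 247 CPM in ob/ob. Its log2 difference was 1.88 ± 0.53 (SE; edgeR adjusted p = 0.031), a call lost without any one of the 4 libraries (0.087 to 0.13, edgeR).

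These 2 clusters were high and low in the same libraries. In total RNA uc009iuq.2 was at 86.7 and 89.7 CPM in wild type, 88.0 and 276 on high-fat diet, and 361 and 222 in ob/ob. As in uc007ijk.1, the second high-fat diet unit and both ob/ob units were high and the other 3 alike. In high-fat diet nuclear IP the first library was the higher one in both clusters, at 159 and 153 CPM against 84.2 and 74.3 CPM. Nuclear IgG held 111 CPM of uc007ijk.1 and 99.7 CPM of uc009iuq.2, above the wild-type and below the ob/ob nuclear IP libraries.

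The member lower in ob/ob nuclear IP was uc009hgv.1, at 88.7 and 169 CPM in wild type and 33.9 and 37.4 CPM in ob/ob. The log2 difference was -1.89 ± 0.38 (SE; edgeR adjusted p = 0.0068), and without the second ob/ob or the second wild-type library the adjusted p was 0.063 and 0.059 (edgeR). Nuclear IgG held 31.5 CPM of uc009hgv.1, just under the ob/ob nuclear IP libraries. Its total RNA was 49.2 and 96.6 CPM in wild type against 30.7 and 37.3 CPM in ob/ob. Wild type was thus the higher group, and its second replicate the highest unit, in all 3 fractions.

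High-fat diet against wild type in nuclear IP gave 10 members higher and 1 lower (edgeR), where 2.23% and 3.14% of all clusters were. By library totals the split turned to 2 higher and 10 lower, where 0.481% and 11.9% of all clusters were, and the median over all clusters moved from -0.06 to -0.45 and that over members from 0.02 to -0.38. With the 12 IP units alone the calls were 6. Most calls were lost without the second wild-type library or either high-fat diet library, among members and among all clusters. The largest rise was in uc007wrv.1, a single-isoform cluster of 800 nt, at 5.30 and 4.44 CPM in wild type and 21.7 and 18.3 CPM in high-fat diet. These values were far under its total RNA, at 49.5 to 134 CPM, and its 6 nuclear IP libraries held only 37 to 129 counts. The log2 difference was 2.01 ± 0.39 (SE; edgeR adjusted p = 0.013). Its mean total RNA was also higher on high-fat diet, at 117 CPM (SD 24.6) against 71.9 CPM (SD 31.7) in wild type. Its mean cytoplasmic IP level was 278 CPM on high-fat diet against 120 CPM in wild type. The second was uc007ibm.2, of 779 nt with 3 isoforms, at 24.0 and 14.4 CPM in wild type and 55.3 and 47.7 CPM in high-fat diet. Its log2 difference was 1.39 ± 0.21 (SE; edgeR adjusted p = 0.0046), while total RNA was level at 44.5 to 54.6 CPM over all mouse groups. Nuclear IgG held 9.3 CPM of uc007wrv.1 and 39.1 CPM of uc007ibm.2, in each case above the wild-type and below the high-fat diet IP libraries. For uc009hgv.1, the member called lower, high-fat diet held 34.3 and 32.8 CPM, a log2 difference of -1.97 ± 0.39 (SE; edgeR adjusted p = 0.015). The calls of uc007wrv.1 and uc009hgv.1 were lost without the second wild-type library or either high-fat diet library, with adjusted p of 0.056 to 0.099 in edgeR. Within each extract, both mouse group comparisons used the same wild-type libraries.

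**Figure D5:**
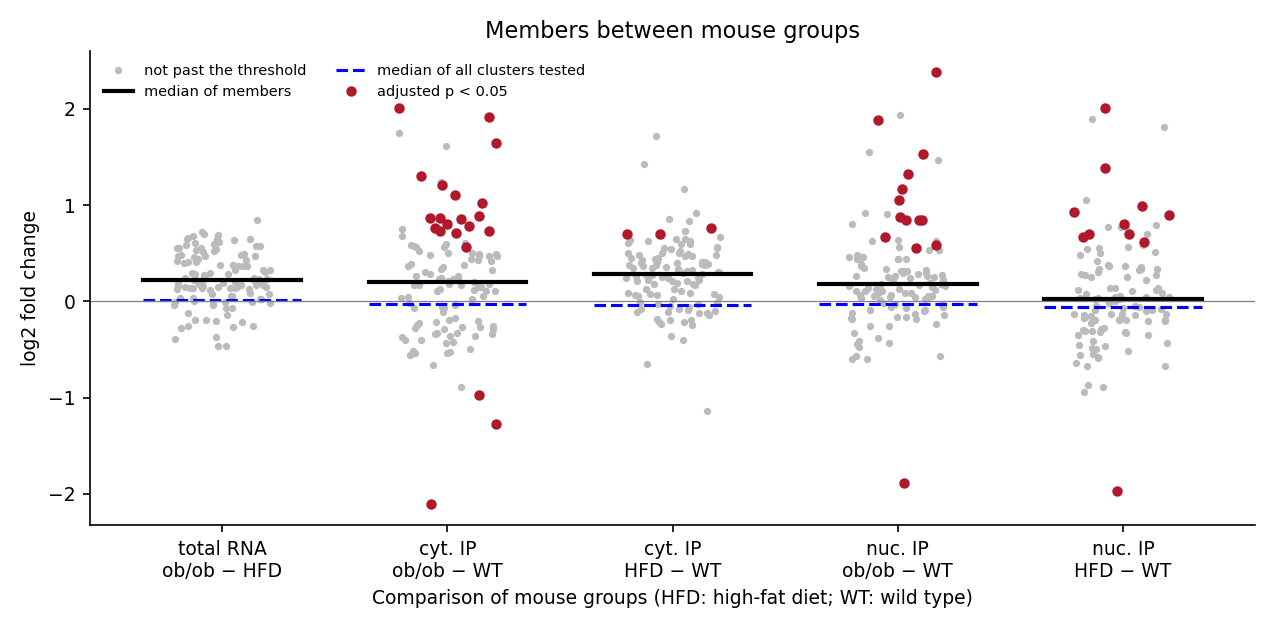
Log2 differences of the 114 members (points) between mouse groups in total RNA, cytoplasmic IP and nuclear IP, with members past an adjusted p of 0.05 in red. Solid bars are the members' medians, between 0.02 and 0.29, and dashed bars the medians of all clusters tested, between -0.06 and 0.01.

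Whether IP differences themselves varied between mouse groups was tested by contrasts added after seeing the data. For the nuclear-minus-cytoplasmic difference, edgeR called 0 members when ob/ob was set against wild type and 0 when the high-fat diet group was. The IP-minus-total difference, ob/ob against high-fat diet, gave 0 in cytoplasmic and 0 in nuclear IP. Of all 13516 clusters 0% were called in each. At an unadjusted p under 0.05 were 8, 13, 29 and 10 members in that order, against 10.5%, 13.6%, 8.01% and 7.89% of all clusters. The smallest adjusted p among members was 0.31, 0.19, 0.55 and 0.26 (edgeR). With 0 calls, no member is said to differ between mouse groups in its IP difference, and the size of difference that these units could show was not measured.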

How the data were processed

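The deposited tables hold 1 row per transcript, with expected counts (estimated counts, unit not normalized) and TPM made by the authors with RSEM 1.2.8, and the transcript length in nucleotides. Build mm10, TopHat2 2.0.10, Bowtie2 2.1.0, bcl2fastq and SAMtools also appear, per the submitters' processing notes, without role or order. RSEM divides reads among similar or overlapping transcripts, so such clusters are uncertain, as are antisense pairs, since no source used here gives the strandedness.

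Isoforms' expected counts were added up within a cluster, then rounded. The 2 total RNA libraries of a replicate number were summed as runs of the same RNA, which the labels do not state. Their r was 0.997 to 0.999, with a chi-square per degree of freedom of 2.19 to 86.4. Single members differed between these libraries by up to 1.37 and 0.93 log2 units in the ob/ob replicates. The largest differences were 0.21 and 0.41 on high-fat diet, and 0.20 and 0.19 in wild type. The labels of the IgG libraries give their molecule as hnRNPK-bound RNA while the titles say IgG. The titles were used.

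All clusters were fitted with edgeR 4.0.16 (quasi-likelihood, TMM, filterByExpr, Benjamini-Hochberg, threshold 0.05) in R 4.3.3: IP comparisons on all 18 units, total RNA on 6. SE is the absolute log2 fold change over the square root of F. CPM levels use TMM over all units and IgG, which entered no test, and log2 CPM a prior count of 1. DESeq2 1.42.0 was an alternative. Steps were tested on simulated counts. The rule for names took called members that averaged at least 1 in log2 CPM and kept 1 direction over unit pairs. Per comparison, the 2 highest and 2 lowest log2 fold changes among them were named. That the compared units of a named member do not overlap thus follows from the rule. Symbols, gene lists, cell type markers and sequences could not be analysed, for want of a table that pairs the identifiers with genes. Members, lists and tests were chosen with earlier results of these data known.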

Additional observations from a re-analysis of the deposited data

Results flagged for a closer look

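In wild-type total RNA, 1 library of uc007ibm.2 lay apart from the rest of its group. The first run of replicate 2 held 57.0 CPM (by library total), and the other 3 libraries held 60.0 to 60.2 CPM. In all, 51 groups of 4 total RNA libraries were examined, for 16 named members and the members' summed share of counts in 3 mouse groups, and this was the 1 that stood out. For 4 independent values chance gives about 1 in 20. Each group was 2 libraries of each of 2 replicate numbers, so that rate need not hold. No conclusion is drawn from 1 among 51 groups.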

How the results depend on the processing

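The members called in either direction for cytoplasmic IP against total RNA, nuclear IP against total RNA, and nuclear against cytoplasmic IP stayed within 1.5 times in summed number under every alternative run, though by library totals the nuclear calls went from 45 higher and 37 lower to 22 and 51. The alternative with all 3 mouse groups used the wild-type total RNA that chose the members, so it is no support. The values below moved further. The cause was not tested. By library totals the median difference from total RNA was 0.92 in cytoplasmic IP and -0.29 in nuclear IP, the latter reversed. Leaving out 1 unit at a time, the nuclear median was 0.038 (without the first ob/ob nuclear library) to 0.31. Against wild type in cytoplasmic IP, DESeq2 called 33 members higher and 3 lower in ob/ob, where 1334 and 1141 of all 13516 clusters were. On high-fat diet these were 17 and 0, where 597 and 415 of all clusters were. In nuclear IP, ob/ob gave 23 higher and 1 lower, where 1174 and 1370 of all clusters were. High-fat diet gave 19 and 4 there, where 648 and 735 were. In total RNA of ob/ob against high-fat diet DESeq2 called 37 members, 36 higher and 1 lower, where 3.78% and 5.23% of all clusters were. That total RNA count was 56 with each library as its own replicate, 50 higher and 6 lower. Of all 14564 clusters, 2284 were higher and 2601 lower in that setting. High-fat diet against wild type in cytoplasmic IP gave 0 calls by library totals, 6 without the filter and 0 with the 12 IP units alone. In nuclear IP the 12 IP units alone gave 6. In that order, higher and lower calls over all clusters were 8 and 15 of 13516, and 195 and 124 of 20078. With the 12 IP units alone they were 14 and 8 in cytoplasmic IP, and 93 and 96 in nuclear IP, of 12502. Leaving out 1 library at a time, calls in cytoplasmic IP against wild type were 4 to 19 in the ob/ob comparison and 0 to 4 in the high-fat diet one, and in nuclear IP 5 to 14 and 1 to 8. Members above IgG in all 6 libraries were 47 by library totals and 34 with a 2-fold margin in cytoplasmic IP, and 4 and 3 in nuclear IP. Of 312 alternatives of 24 named results, 36 lost the call and 0 changed direction. The rule for names required 1 direction over all unit pairs, so a change of direction was hardly possible and the 0 is no check.

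Nothing in the labels ties replicate numbers to animals. Deviations of same-numbered units correlated between fractions at 0.35 to 0.41 in wild type and 0.26 to 0.32 in ob/ob, but at -0.12 to 0.09 in high-fat diet, and at -0.28 to 0.10 between mouse groups. The numbers were not taken to pair the samples, because not every correlation was above 0.1. With a replicate block, the calls higher and lower were 102 and 9 for cytoplasmic IP against total RNA, 49 and 38 for nuclear IP against total RNA and 7 and 93 for nuclear against cytoplasmic IP. Over all 13516 clusters those calls were 4879 and 5570, 4198 and 5649, and 4387 and 4721. For ob/ob and high-fat diet against wild type the members' calls were 22 and 3, and 4 and 0, in cytoplasmic IP. In nuclear IP they were 14 and 1, and 10 and 1. All clusters gave 836 and 954, 166 and 170, 751 and 1160, and 309 and 462 in the same order. Cytoplasmic IgG was 1 library of 338469 counts, which limits the precision of the comparison with it.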
